A study of Mus musculus with 10 samples.

Results

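The comparison described here is that of PAR1-/- bladders with wild type (WT) bladders after instillation of saline alone, that is, of mice with and without PAR1 (gene F2r) before any inflammatory stimulus. It rests on 2 of the 10 arrays of the series, 1 per genotype, and covers all 5030 probes of the array, chosen by no measured value. Each array had been hybridized with the radioactively labelled cDNA of 8 bladders pooled before RNA extraction. The WT mice were C57BL/6J and the mutants were PAR1-/- mice enriched in that background. The mice of both groups were female and had been anesthetized, catheterized through the urethra and instilled with saline, and their bladders were taken 24 h later. Their ages were not stated in the labels or the methods. The other 8 arrays entered the normalization, gave the spread for the test and served for comparison beside the saline values. They come from WT and PAR1-/- mice 4 and 24 h after instillation of Escherichia coli lipopolysaccharide (LPS, 100 μg/ml) or of the sensory neuropeptide substance P (SP), for which the labels give 10 μM in WT mice and 20 μM in PAR1-/- mice. The methods of the study give 10 μM SP for both genotypes. Which array came from which genotype is given by the design text of the series and by no label of the single arrays.

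PAR1 is a receptor of the cell surface that thrombin and other serine proteinases switch on by cutting off the end of its extracellular tail, and the new end then acts as a tethered ligand. It signals through heterotrimeric G proteins to calcium and protein kinase C. In the bladder it is found in urothelium, smooth muscle, endothelium and other cells, and thrombin, plasmin and the proteinases of mast cells are among the enzymes that reach it during inflammation. The saline pair compares bladders that had received the catheter and saline only.

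Because there was 1 array of pooled bladders per genotype, no ratio between the saline arrays has a replicate check. Differences between the mutant and WT pools, between the genetic backgrounds and between the hybridizations cannot be told apart. In whole bladders, fewer cells of a type and less RNA per cell cannot be told apart either. The deposited values are scores scaled gene by gene, from which the whole-number spot intensities of 4955 probes (98.5%) were worked back, and the 75 others were left out. Values below are these intensities unless called ratios. A ratio is PAR1-/- over WT after normalization by robust regression, and a spot counts as above background when it lies more than 3 SD over the background mode of its array. As intensities, these thresholds were 12.3 on the WT and 12.5 on the PAR1-/- saline array.

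The saline arrays were dim. The median spot had an intensity of 10 on both, the summed intensity was 71003 on the WT and 68267 on the PAR1-/- array, and 30.5% and 29.6% of the probes were above background. The 8 challenged arrays summed to between 72292 and 263725. Regression slopes were 0.833 and 0.798 for the saline arrays, so that normalization stretched their differences: an intensity of 15 on the WT array against 30 on the PAR1-/- array became a ratio of 2.59. For this reason each ratio below stands beside the intensities it came from.

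Labelled tissue and array could be checked through genes that mark the bladder, and these were weak. Of the 10 smooth muscle probes, 5 were above background on the WT array and 2 on the PAR1-/- array. Myh11, the myosin heavy chain of smooth muscle, had intensities of 11 and 10, and Actg2, the actin of visceral smooth muscle, had 12 and 11. Upk2, a uroplakin of the urothelial plaques, had 8 and 10, and of the 11 urothelial probes 3 and 4 were above background. The brightest probe of both arrays was named for Snap91, a gene of nerve terminals, with 240 on the WT and 309 on the PAR1-/- array. The 3 probes for Actb, cytoplasmic actin, had 9, 19 and 22 on the WT array and 11, 10 and 24 on the PAR1-/- array. Probes of 1 gene thus differed from each other, and a value is tied to its gene only as far as the probe naming holds.

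The receptor gene itself gave no signal above background in saline. F2r had an intensity of 10 in WT and 11 in PAR1-/- saline bladders, both under background. The other WT arrays had 195, 15, 22 and 11 (LPS 4 h, LPS 24 h, SP 4 h and SP 24 h) and the other PAR1-/- arrays had 17, 18, 51 and 21 in the same order. F2r was above background on 4 arrays, WT after LPS at 4 h and the PAR1-/- arrays of LPS at 24 h, SP at 4 h and SP at 24 h, so that it was above background on 3 arrays of the mutant and on 1 of WT. The labels and the methods do not place the F2r probe relative to the disrupted part of the gene, so that F2r does not check the genotypes. F2rl2 and F2rl3, the genes of PAR3 and PAR4, were also under background on both saline arrays, with 11 and 9 for F2rl2 and 9 and 8 for F2rl3. No probe for F2rl1, the gene of PAR2, is among those used here.

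The saline arrays of the 2 genotypes resembled each other. Of the 4955 probes, 1123 were above background on both arrays and have a ratio. A further 342 were above background on the PAR1-/- array alone and have a lower bound, and 234 on the WT array alone and have an upper bound. Of the 3256 others, 3100 were above background on neither array. The remaining 156 were above it on the WT array alone but not above the PAR1-/- threshold after normalization. The normalized thresholds were 21.1 on the WT and 23.1 on the PAR1-/- array, so that only probes of the WT array lost their bound in this way. The log2 ratios of the 1123 probes had a median of 0.038 and an SD of 0.46, that is, a typical departure of 1.38-fold. Of these, 41 probes (3.65%) were beyond 2-fold and 6 (0.534%) beyond 3-fold.

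A pair of arrays of 1 genotype differed about as much. The WT array of SP at 24 h was as dim as the saline arrays, with a sum of 72292. It differed from the WT saline array with an SD of 0.48 over 1132 probes, of which 50 (4.42%) were beyond 2-fold and 6 (0.53%) beyond 3-fold. That comparison differs by SP and not by genotype, and it shares the WT saline array with the genotype pair. The same WT array of SP at 24 h differed from the PAR1-/- saline array, by SP and genotype at once, with an SD of 0.59 over 1079 probes, of which 80 (7.41%) were beyond 2-fold and 14 (1.3%) beyond 3-fold. Over the 502 probes above background on all 10 arrays, the SD was 0.55 between the saline genotypes, 0.56 between WT saline and WT SP 24 h, 0.68 between PAR1-/- saline and WT SP 24 h, and 0.70 to 0.92 between genotypes in the 4 challenged pairs. The saline pair was the closest of the 5 genotype pairs by this measure. The arrays of the challenged pairs were also less alike in brightness. Before normalization their median log2 differences over these probes were 0.28 to 1.51, beside -0.16 in saline. The part of brightness in the ranking was not tested.

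**Figure D1:**
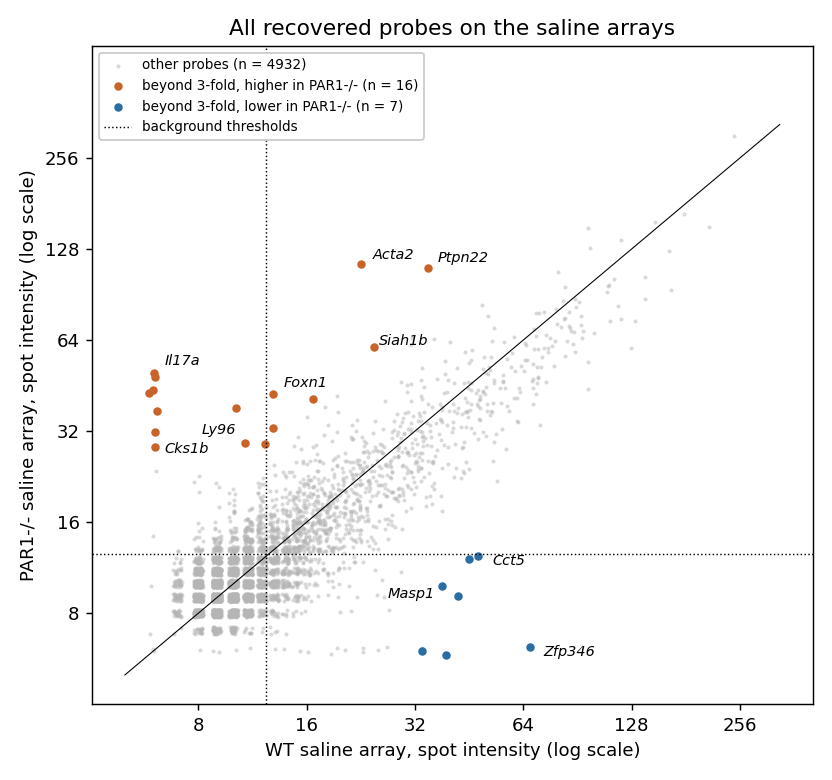
Spot intensity on the WT saline array (horizontal, log scale) against the PAR1-/- saline array (vertical, log scale), 1 point per recovered probe, with points spread slightly because intensities are whole numbers. Dotted lines are the background thresholds and the solid line marks equal intensity. Orange points are the 16 probes with a normalized ratio or lower bound above 3 and blue points the 7 with an upper bound beyond 3-fold; a column of orange points stands at the lowest intensity of the WT array and a row of points at that of the PAR1-/- array.

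Counting ratios and bounds together, 23 of 1699 probes (1.35%) were beyond 3-fold, 16 higher (0.942%) and 7 lower (0.412%) in PAR1-/- bladders. Of the 16 higher, 6 were measured on both arrays and 10 were lower bounds. All 7 of the lower were upper bounds, so that no probe measured on both arrays was below WT by more than 3-fold. Beyond 2-fold there were 79 (4.65%), 50 higher (2.94%) and 29 lower (1.71%). Without normalization the counts were 9 higher and 6 lower beyond 3-fold, and 21 higher and 20 lower beyond 2-fold, so that the excess of higher probes beyond 2-fold was not seen on the intensities themselves. Of probes near the 3-fold limit, Kcnk7 was just inside it with a lower bound of 3.14 and Cyp3a13 just outside with a ratio of 2.91, and on the lower side Dguok was just inside at 0.324 and Tbc1d1 just outside at 0.336.

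The 6 probes measured on both arrays and higher beyond 3-fold were Acta2, Foxn1, Ptpn22, Siah1b, Supt6 and Ehd1. Foxn1 and Supt6 had a WT saline intensity of 13, the lowest whole number above the threshold of 12.3. Their ratios thus rest on a WT value at the edge of background. Acta2, the alpha actin of smooth muscle and of contractile fibroblasts, had an intensity of 23 in WT and 112 in PAR1-/- saline bladders, a 4.87-fold difference that became a ratio of 8.08 after normalization. The other WT arrays had 194, 136, 69 and 44 and the other PAR1-/- arrays 152, 131, 29 and 151 (LPS 4 h, LPS 24 h, SP 4 h and SP 24 h). After normalization the PAR1-/- saline level of Acta2, 361, was the highest of the 10 arrays and the WT saline level, 44.6, the third lowest. In the 4 challenged pairs the PAR1-/- to WT ratios of Acta2 were 0.610, 0.617, 0.371 and 1.14, so that 3 of them lay on the other side of 1 from the saline ratio.

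No other probe of smooth muscle had a ratio or bound beyond 2-fold. Vcl, which anchors actin at the membrane, had 24 on the WT and 21 on the PAR1-/- array, a ratio of 0.941. Cnn1, calponin, had 14 and 9, the latter under background. Tagln, a protein that binds actin in smooth muscle, had 13 and 10, and Smtn, smoothelin, had 13 and 12. Of the 10 probes, 3 had a ratio or a bound.

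Ptpn22, a tyrosine phosphatase that restrains signalling from the antigen receptors of lymphocytes, had 35 on the WT and 110 on the PAR1-/- saline array, a ratio of 4.77. The other WT arrays had 280, 202, 586 and 88 and the other PAR1-/- arrays 178, 255, 632 and 215. Its normalized level was lowest of the 10 arrays on WT saline, 73.9, and highest on PAR1-/- saline, 352, while all 4 challenged pairs had ratios under 1, from 0.484 to 0.838. Other lymphocyte probes were dim. Cd28, a co-stimulatory receptor of T cells, had 24 and 14 (ratio 0.566), and Gzmb, granzyme B of cytotoxic cells, had 42 and 37 (ratio 0.977).

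Foxn1, a forkhead transcription factor of thymus and hair follicle epithelium, had 13 on the WT and 43 on the PAR1-/- saline array, a ratio of 4.83. The other WT arrays had 306, 92, 322 and 14 and the other PAR1-/- arrays 214, 374, 676 and 296. The WT arrays of saline and of SP at 24 h were thus alike in being low, and the other 8 arrays were all above both. In the challenged pairs the ratios were 0.522 (LPS 4 h), 2.35 (LPS 24 h), 1.50 (SP 4 h) and 8.17 (SP 24 h).

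Siah1b, a ubiquitin ligase, had 24 and 59 on the WT and PAR1-/- saline arrays, a ratio of 3.44. Supt6, a transcription elongation factor, had 13 and 32, a ratio of 3.33. Ehd1, which acts in the recycling of endocytosed membrane, had 17 and 41, a ratio of 3.29. These 3 were under 3-fold as plain intensities, at 2.46, 2.46 and 2.41, and Acta2, Ptpn22 and Foxn1 remained over it, at 4.87, 3.14 and 3.31. WT saline gave the lowest normalized level of the 10 arrays for Supt6 (22.5) and for Ehd1 (31.1), and PAR1-/- saline the highest for Siah1b (161). In the challenged pairs (LPS 4 h, LPS 24 h, SP 4 h and SP 24 h) Siah1b had ratios of 1.96, 1.08, 1.82 and 0.522. Supt6 had 0.792, 1.72, 0.764 and 1.26, and Ehd1 had 0.860, 2.66, 0.637 and 0.514.

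**Figure D2:**
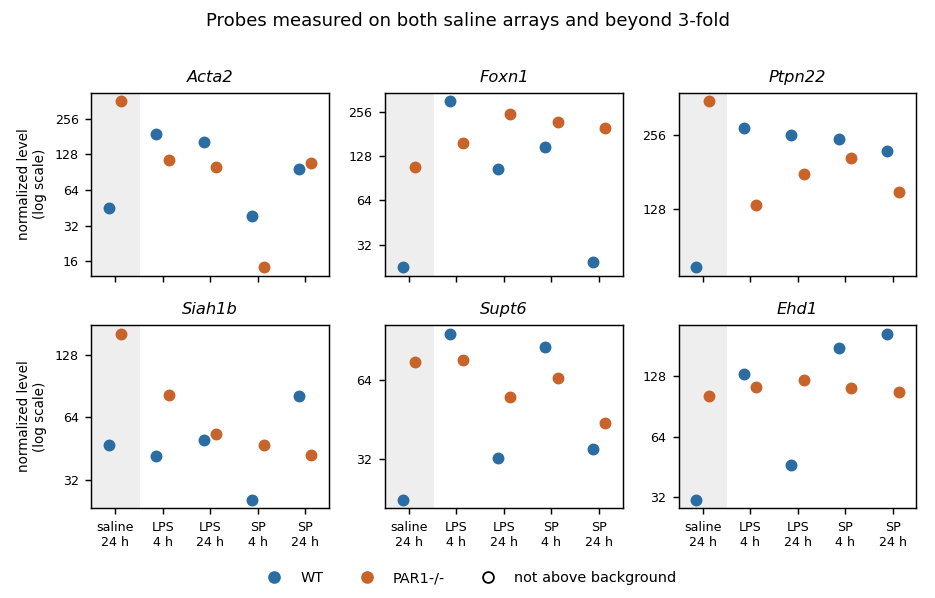
Normalized level (vertical, log scale) of the 6 probes measured on both saline arrays and beyond 3-fold, on each of the 10 arrays (horizontal, by treatment and time; blue WT, orange PAR1-/-; 1 array per point, saline shaded). Every saline pair has PAR1-/- above WT, and for Acta2, Ptpn22 and Ehd1 the order is turned in most challenged pairs.

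Probes next in order, between 2.59 and 2.91, were Cyp3a13, Adcy6, Eif3a, Pspn, Grin2c and Vps35. Adcy6, an adenylyl cyclase that makes cyclic AMP, had 16 on the WT and 35 on the PAR1-/- array, a ratio of 2.91. Eif3a, a subunit of a translation initiation factor, had 18 and 39, a ratio of 2.89. Vps35, a part of the retromer that returns receptors from endosomes, had 32 and 62, a ratio of 2.59. Cyp3a13, a cytochrome P450 that oxidizes drugs and steroids, had 31 and 66, and Pspn, the neurotrophic factor persephin, had 20 and 42. Grin2c, a glutamate receptor subunit, had 15 and 31.

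Among probes with a gene name, the lowest ratios were closer to 1 than the highest. Ifnb1, interferon beta, had 37 on the WT and 17 on the PAR1-/- saline array, a ratio of 0.429. Smpd2, a neutral sphingomyelinase, had 73 and 33, a ratio of 0.436. Kif9, a kinesin, had 95 and 44, and Sp100, a nuclear body protein induced by interferon, had 58 and 28. Hspd1, the chaperonin HSP60 of mitochondria, had 130 and 61, a ratio of 0.471, the brightest of these probes on the WT array.

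Ccl7 and Il15ra were also among the 12 lowest ratios. Ccl7, a chemokine that draws monocytes, had 38 on the WT and 19 on the PAR1-/- array, a ratio of 0.478. Il15ra, a receptor of interleukin 15, had 36 and 18, a ratio of 0.476. Tspan6, Cidea, Cacng2, Stag1 and Gcg followed with ratios from 0.486 to 0.510. For Ifnb1 the challenged pairs gave 1.30 (LPS 4 h), a lower bound of 1.19 (LPS 24 h), 0.998 (SP 4 h) and 0.496 (SP 24 h).

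Of the 17 probes beyond 3-fold that were above background on 1 saline array alone, 10 stood at the lowest intensity of the other saline array. Il17a, an interleukin of T helper cells, had 6 on the WT and 50 on the PAR1-/- saline array, a lower bound of 6.21. Dclk1, a kinase that binds microtubules, had 6 and 49, Sufu, which restrains hedgehog signalling, had 6 and 44, and Olfr69, an odorant receptor, had 6 and 45. Cdh17, a cadherin of intestine, had 6 and 38, Ajuba, a scaffold of cell junctions, had 6 and 32, and Cks1b, a partner of cyclin-dependent kinases, had 6 and 29. The lowest intensity on the WT saline array was 6, and these 7 were among the 13 probes that had it.

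The lower side had the same form. Zfp346, a zinc finger protein that binds double-stranded RNA, had 68 on the WT and 6 on the PAR1-/- saline array, an upper bound of 0.141. Ltc4s, the synthase of leukotriene C4, had 40 and 6, and Dguok, a nucleoside kinase of mitochondria, had 34 and 6. The lowest intensity on the PAR1-/- array was also 6, and 23 probes had it.

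The probes at the lowest intensity were shared between particular arrays. Of the 13 on the WT saline array, 11 were also at the lowest intensity of the WT LPS 24 h array, which is 9 and is held there by 12 probes. Of the 23 on the PAR1-/- saline array, 20 were at the lowest intensity of the PAR1-/- array of LPS at 24 h, 7, which is held there by 20. WT and PAR1-/- SP at 24 h shared 9 of 10 and 9 in the same way. The 2 saline arrays shared 2, and no other pair of arrays shared more than 2. The pairs did not follow 1 rule: genotype and time were alike in the first 2 and stimulus and time in the third.

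Spots at the minimum were bright elsewhere. Of the 13 probes at the minimum of the WT saline array, 9 were above background on the PAR1-/- saline array, with 14 to 50, and these had 45 to 313 in WT bladders 4 h after LPS and 38 to 463 in those 4 h after SP. Of the 23 at the minimum of the PAR1-/- saline array, 16 were above background on the WT saline array, with 13 to 68. Sufu, for example, had 57 in WT bladders after SP at 24 h. At 4 h it had 313 after LPS and 330 after SP. What set these spots to the minimum was not tested. Without the 34 probes at the minimum of either saline array, an alternative chosen after seeing the data, 9 probes were higher and 4 lower beyond 3-fold, and 42 and 22 beyond 2-fold.

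The probes left among the bounds were Keap1, Ly96 and Kcnk7 on the higher side and Cct5, Meox2, Bscl2 and Masp1 on the lower. Ly96, known as MD-2, is the partner of the LPS receptor Tlr4 and had 11 on the WT and 30 on the PAR1-/- saline array, a lower bound of 3.28. Keap1, which holds the antioxidant regulator Nrf2 in check, had 10 and 37, a lower bound of 4.26. Kcnk7, a potassium channel subunit, had 12 and 29. Keap1 was also at the minimum, 9, in WT bladders of LPS at 24 h, and Ly96 was at 15 there, the intensity of 87.3% of the probes of that array.

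Masp1, a serine proteinase of the lectin pathway of complement, had 38 on the WT and 10 on the PAR1-/- saline array, an upper bound of 0.284. In every challenged pair it went the other way, with ratios of 1.89, 1.71, 2.12 and 2.12. Meox2, a homeobox gene of mesoderm, had 45 and 12, Cct5, a subunit of the cytosolic chaperonin, had 49 and 12, and Bscl2, seipin of lipid droplets, had 43 and 9. Cct5 and Bscl2 were under background on the PAR1-/- array of LPS at 24 h as well, with 16 and 10. The other 3 PAR1-/- arrays had 144, 272 and 168 for Cct5 and 83, 188 and 71 for Bscl2.

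**Figure D3:**
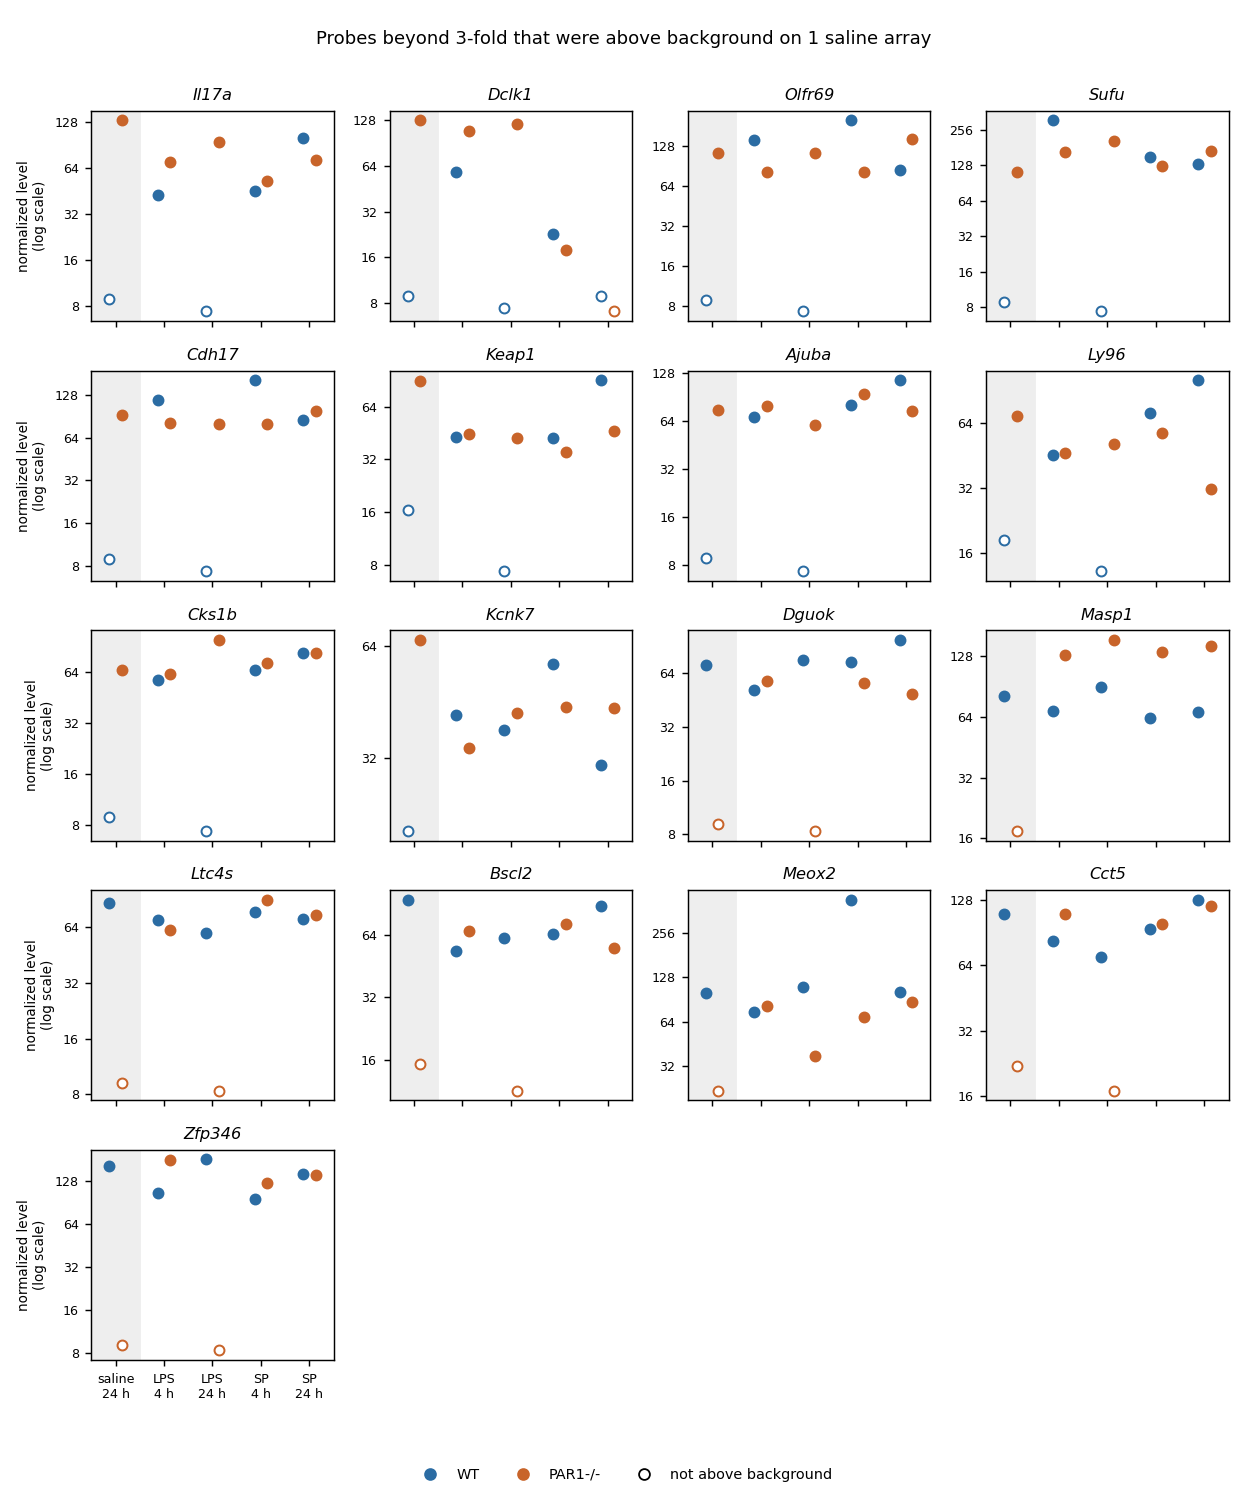
Normalized level (vertical, log scale) on each of the 10 arrays of the 17 probes beyond 3-fold that were above background on 1 saline array (blue WT, orange PAR1-/-, open circles not above background, saline shaded). The probes low on WT saline are, except Kcnk7, also under background on WT LPS 24 h, an array on which only 11.6% of all probes are above it. Dguok, Ltc4s, Bscl2, Cct5 and Zfp346 are low on both the saline and the LPS 24 h array of PAR1-/- bladders.

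Probes low on WT saline had both bright and dim values in the WT bladders of SP at 24 h, whose array was as dim as the saline ones. Il17a had 46 there, Sufu 57, Keap1 42, Ly96 46 and Ptpn22 88. Foxn1 had 14, close to its intensity on WT saline. Among the 16 probes higher beyond 3-fold, 10 were nearer on that array to PAR1-/- saline and 6 nearer to WT saline. All 7 lower probes were nearer to WT saline. Beyond 2-fold, 24 of 50 higher and 4 of 29 lower probes were nearer to PAR1-/- saline, and 26 and 25 nearer to WT saline. The WT array of SP at 24 h differs from WT saline by SP as well, so that these values do not tell which saline array stood apart.

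Whether the saline differences recurred under challenge was asked in the 4 challenged pairs, whose arrays enter the saline ratio only through the normalization. Of the 50 probes higher beyond 2-fold, 45 were above background on at least 4 arrays and could be followed. Their mean difference over the challenged pairs was above 0 in 24 of 45 (53.3%), beside 42.2% of the 1484 followed probes with any saline ratio or bound. Of the 29 lower probes it was below 0 in 20, beside 858 of 1484. Higher in all 4 challenged pairs were 5 of the 45 (11.1%), beside 9.6% of the 1484, and lower in all 4 were 0 of the 29, beside 14.6%. Against their saline direction, 6 of the 45 (13.3%) were lower in all 4, beside 14.6% of the 1484. Of the 29, 2 (6.9%) were higher in all 4, beside 9.6%. Pair by pair (LPS 4 h, LPS 24 h, SP 4 h and SP 24 h), 44.4%, 55.6%, 51.1% and 51.1% of the 45 were higher, beside 43.8%, 42.9%, 49.2% and 48% of the 1484. Of the 29, lower were 12, 18, 13 and 17 in the same order, beside 834, 848, 754 and 771 of the 1484. The LPS 24 h arrays share minimum spots with the saline arrays of their genotype, so that this pair is not independent of the saline pair. A probe under background on both arrays of a pair entered with the 2 normalized thresholds, and so counted as lower. These thresholds were below those of WT on the PAR1-/- array of all 4 pairs. In the same order they were 16.9 against 18.8, 18.2 against 30.4, 13.2 against 15.7 and 18.1 against 21.3. The part of this in the shares above was not tested.

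**Figure D4:**
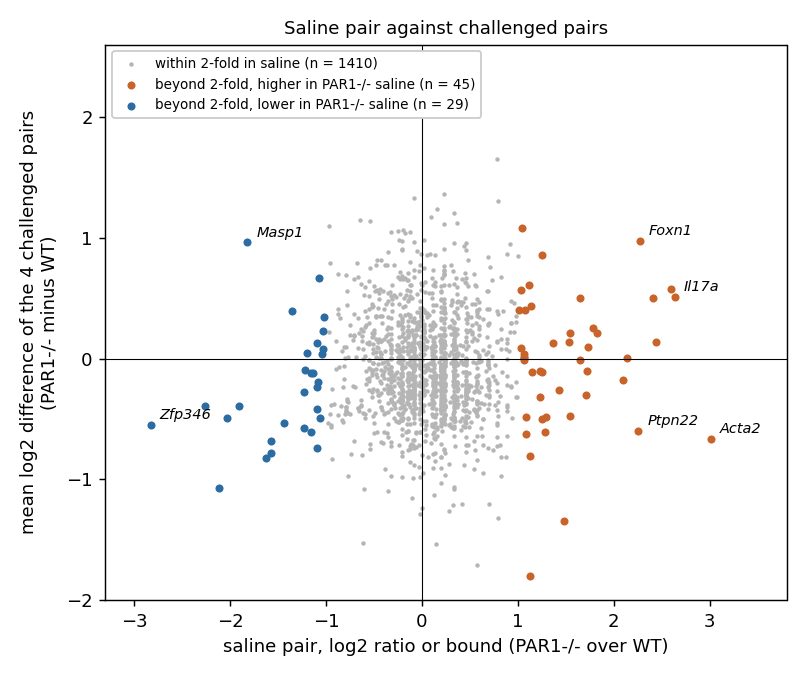
Log2 ratio or bound of PAR1-/- over WT in saline (horizontal) against the mean log2 difference of the 4 challenged genotype pairs (vertical), 1 point per followed probe. Orange and blue points are beyond 2-fold in saline; they lie on both sides of 0 on the vertical axis, with 24 of 45 orange points above it and 20 of 29 blue points below.

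A test was possible only by assuming that the saline pair varies like the 4 challenged pairs. The SD over the 502 probes was 0.55 in saline and 0.70 to 0.92 in the challenged pairs. The spread of the fit also holds any change of the genotype difference with stimulus or time. It is thus no measure of how saline pools vary. In a limma fit with a term for each condition over 1973 probes, 0 probes (0%) passed an adjusted p of 0.05 for the saline genotype difference, and 40 had an unadjusted p under 0.05. The smallest adjusted p was 0.623. With no filter on dim probes, some passed. The probes that this setting added were raised to their thresholds on most arrays, so that their spread was largely not measured. Acta2 had the smallest unadjusted p of the named probes, with a log2 difference of 3.01 (SE 0.55, limma adjusted p = 0.623), and Ptpn22 followed with 2.25 (SE 0.43, limma adjusted p = 0.623). Over the challenged pairs limma called 0 probes (0%), with 309 at an unadjusted p under 0.05.

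The difference between the saline and the challenged effect of genotype was tested in the same fit and called 0 of 1973 probes (0%), with 77 at an unadjusted p under 0.05. Masp1, Acta2 and Ptpn22 had the smallest limma adjusted p of the named probes for it, 0.176. Reversals in all 4 challenged pairs were no more frequent among probes beyond 2-fold in saline than among all followed probes. Pspn and Il15ra were on the other side of 1 from their saline ratios in all 4 challenged pairs. Their ratios there were 0.160 to 0.829 and 1.29 to 1.88, and both had a limma adjusted p of 0.959. In simulated arrays with the residual spread of these data, limma called 80.5% of the probes whose saline pair had been set 3 apart on the log2 scale. It also made 5 false calls. Of the probes measured on both saline arrays, only Acta2 differed by that much. The residual spread in the simulation was that of the challenged pairs. Differences of 2-fold and 3-fold were not simulated, so that the share of those that the fit would call is not known.

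The gene lists are described by their counts. Of all 1699 probes with a ratio or bound, 953 were above and 746 below 1, with a median of 1.08, 4.65% were beyond 2-fold and 1.35% beyond 3-fold. This split depends on normalization and on the bounds. Without normalization 742 were above and 1002 below 1, and among probes above background on both arrays 611 were above and 512 below. Counts above and below 1 in the lists carry the same limit. Ligand proteinases and regulators of PAR1 had 12 probes with a ratio or bound of 32, 6 above and 6 below 1, with a median of 1.01. F3, tissue factor, which starts coagulation, had 77 on the WT and 65 on the PAR1-/- array (ratio 0.956). Plau, urokinase, had 40 and 37 (ratio 1.04), F2, prothrombin, had 35 and 30 (ratio 0.935), and Thbd, thrombomodulin, which turns thrombin to an anticoagulant role, had 33 and 22 (ratio 0.680). The only member beyond 2-fold was Mcpt1, a mast cell chymase, with 8 and 22, a lower bound of 2.22.

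Among the G proteins and second messengers that act below PAR1, 9 of 39 probes had a ratio or bound, 4 above and 5 below 1, and 0 were beyond 2-fold. Prkcb, protein kinase C beta, had 117 and 77 (ratio 0.715), and Prkcd, protein kinase C delta, had 36 and 27 (ratio 0.792). Gnb2, a beta subunit of G proteins, had 16 and 22 (ratio 1.62), and Gna15, an alpha subunit of the Gq class, had 25 and 27 (ratio 1.23).

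In the inflammatory lists 1 probe of 8, 1 of 7 and 0 of 7 with a ratio or bound were beyond 2-fold, beside 4.65% of all probes. Of 27 NF-kappaB and acute cytokine probes, 8 had a ratio or bound, 2 above and 6 below 1, with a median of 0.942, and Ccl7 alone was beyond 2-fold. Tnf, tumor necrosis factor, had 45 on the WT and 29 on the PAR1-/- array (ratio 0.663), Ccl2, a monocyte chemokine, had 28 and 31 (ratio 1.27), and Ccl4, a macrophage chemokine, had 29 and 26 (ratio 0.979). Of the probes for sensing of LPS and SP, 7 of 12 had a ratio or bound, with Ly96 beyond 3-fold and Myd88, the adaptor of Toll-like receptors, at 41 and 23 (ratio 0.554). Immediate early genes had 7 of 19, with 3 above and 4 below 1 and 0 beyond 2-fold. Egr1 had 20 and 13 (ratio 0.642), and Ccn1 had 19 and 18 (ratio 1.03).

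The interferon and antigen presentation list had 14 of 31 probes with a ratio or bound, 10 above and 4 below 1, with a median of 1.17. Only Ifnb1 was beyond 2-fold. Irf1 and Irf2, regulators of interferon genes, had 19 and 26 (ratio 1.63) and 22 and 16 (ratio 0.743), and Ifit2, an antiviral protein, had 12 and 18, a lower bound of 1.73.

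Markers of the cells of the bladder wall gave few values. Fibroblast and matrix genes had 8 of 23 probes with a ratio or bound, 4 above and 4 below 1, with Fbln2, fibulin, at 97 on the WT and 55 on the PAR1-/- array (ratio 0.588) and Timp1, an inhibitor of matrix proteinases, at 33 and 41 (ratio 1.49). Their defining members Col1a2 (9 and 9), Dcn (9 and 9) and Lum (10 and 10) were under background on both. In the urothelial list 4 of 5 were above 1. Krt13, a keratin of stratified epithelium, had 13, just above background, and 23 (ratio 2.20), while Krt19 had 17 and 11, an upper bound of 0.745. Endothelial genes had 3 of 15, with Tie1 at 52 and 45 (ratio 0.966) and Edn1, endothelin, at 39 and 42 (ratio 1.25), while Pecam1 (11 and 8) and Kdr (10 and 9) were under background.

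The leukocyte lists had at most 1 probe beyond 2-fold. Macrophage and neutrophil genes had 6 of 16 probes, 2 above and 4 below 1 and 0 beyond 2-fold, with Csf1r, the receptor of macrophage growth factors, at 31 and 20 (ratio 0.651) and Cybb, of the oxidative burst, at 19 and 24 (ratio 1.47). Mast cell genes had 3 of 10, with Mcpt1 beyond 2-fold, and Cma1 (13 and 10) and Tpsb2 (9 and 8) gave neither a ratio nor a bound. Lymphocyte genes had 6 of 25, with a median of 0.885, and Ptpn22 alone beyond 2-fold. Nerve and Schwann cell genes had 3 of 14, all above 1, with Gap43, a protein of growing axons, at 13, just above background, and 25 (ratio 2.44).

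Genes typical of organs other than bladder had values of the same order as the bladder's own. Of 17 such probes 4 were above background on the WT and 7 on the PAR1-/- array, and their intensities summed to 192 and 201. Myl2, a myosin light chain of heart and slow muscle, had 22 and 13, and Prl, prolactin of the pituitary, had 17 and 19. The part of such signal in the values of the other lists was not tested.

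Lists of cell function differed in how their members were split around 1, most of them with few values. Hedgehog and Notch genes had 8 of 27 probes with a ratio or bound, 6 above and 2 below 1, with Sufu, at the minimum of the WT array, beyond 3-fold and Gli1, a target of hedgehog signalling, at 47 and 36 (ratio 0.825). WNT pathway genes had 16 of 36, 9 above and 7 below 1, with 0 beyond 2-fold. Wif1, a secreted inhibitor of WNT, had 109 and 99 (ratio 1.07), and Fzd8, a WNT receptor, had 71 and 45 (ratio 0.665). Hox genes had 8 of 23, with Hoxd10 at 95 and 154 (ratio 2.19) and Hoxc4 at 61 and 41 (ratio 0.710). Forkhead genes had 6 of 23, with Foxn1 beyond 3-fold and Foxc1 at 24 and 13 (ratio 0.516).

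Integrins, the receptors that hold cells to matrix and to other cells, had 5 of 18 probes with a ratio or bound, 1 above and 4 below 1, with a median of 0.745. The 18 include Itgb1bp1 and Itgb1bp2, which bind integrins and had neither a ratio nor a bound. Itgb3 had 42 and 28 (ratio 0.689) and Itgb7 had 70 and 48 (ratio 0.733). Ubiquitin and proteasome genes had 18 of 51, 11 above and 7 below 1, with Usp2, a deubiquitinating enzyme, at 43 and 23 (ratio 0.523). Chaperones had 15 of 35, with Cct5 and Hspd1 lower beyond 2-fold, Dnaja1 at 80 and 80 (ratio 1.19) and Hsp90b1, of the endoplasmic reticulum, at 37 and 47 (ratio 1.54). Cell cycle genes had 22 of 58, 14 above and 8 below 1, with Chek1, a checkpoint kinase, at 19 and 32 (ratio 2.11). Ribosomal proteins and translation factors, counted with kinases and binding proteins of these factors, had 19 of 48, 13 above and 6 below 1, with Eif3a alone beyond 2-fold. Tyrosine and dual-specificity phosphatases had 14 of 27, 10 above and 4 below 1, with Ptpn22 alone beyond 2-fold and Ptpn11, the phosphatase SHP2, at 33 and 40 (ratio 1.44). The 14 include Ptprcap, a protein associated with the phosphatase Ptprc (ratio 0.649). Respiratory chain genes had 4 of 17, 0 above and 4 below 1. Cox8b had 19 and 15 (ratio 0.817), Cox7c had 56 and 45 (ratio 0.884), and Ndufs4 and Cox7a2 had upper bounds of 0.866 and 0.941.

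**Figure D5:**
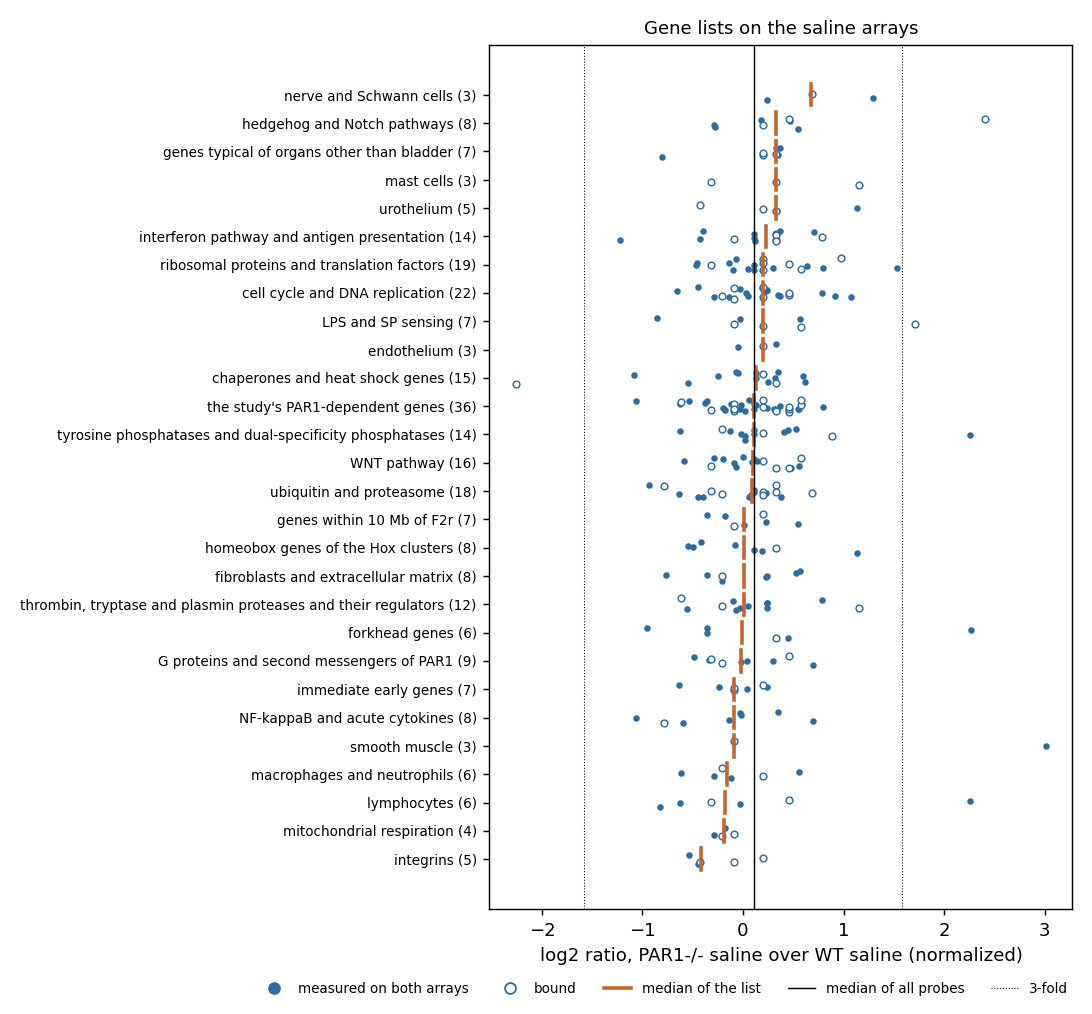
Log2 ratio of PAR1-/- over WT in saline (horizontal, normalized) for the members of each gene list that had a ratio (filled) or a bound (open); the number of such members follows the list's name. Orange bars are list medians, the solid line is the median of all probes (0.11) and dotted lines mark 3-fold; apart from Acta2, Foxn1, Ptpn22, Sufu, Ly96 and Cct5 the points lie within the dotted lines.

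The genes that the study had selected as dependent on PAR1 after challenge had the median of the whole array in saline. They were chosen on ratios of which these saline arrays are the denominators, so that they are no independent list. The 75 probes used here stand for 71 of the genes listed, and 4 other genes of that list were not analysed here. Of these probes 36 had a ratio or bound, 21 above and 15 below 1, with a median of 1.08, as for all probes. Ccl7 alone was beyond 2-fold and 0 were beyond 3-fold. Snrpc, a spliceosome protein, had 55 and 48 (ratio 0.979), Med14, of the mediator complex, had 54 and 39 (ratio 0.772), and Wnt6 had 29 and 36 (ratio 1.47).

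Genes that lie within 10 Mb of F2r on its chromosome had a median near that of all probes. Of 24 probes 7 had a ratio or bound, 4 above and 3 below 1, with a median of 1.00 and 0 beyond 2-fold. Tbca, a tubulin chaperone, had 15 and 19 (ratio 1.46), Foxd1, a forkhead factor of stroma, had 62 and 45 (ratio 0.782), and Otp, a homeobox gene, had 29 and 30 (ratio 1.17).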

How the data were processed

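The authors hybridized cDNA of pools of 8 bladders to Clontech Atlas mouse plastic 5K arrays and quantified the spots with AtlasImage. The values that the authors deposited are scores: on the log2 scale each gene was centred on 0 and brought to the same SD across its 10 arrays, as read from the values. The design had assumed intensities. Whole-number intensities up to 3000 were tried against the 10 scores of each probe (numba 0.67.0) and accepted where under 0.01 chance matches were expected, and 1 match with a value that no other probe has was refused. When checked on 1000 simulated probes, the search returned 99.7%, and 100.0% of the returned numbers were right. The simulated probes were made by small changes to recovered intensities, so that they do not stand for the probes left out. When the intensities were moved off whole numbers, 1.1% were still matched.

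Background was the kernel density mode of an array with the SD of the values below it, and the threshold lay 3 SD above. Log2 intensities were regressed (rlm, MASS 7.3.60.0.1) on the mean of 10 arrays over the 502 probes above all thresholds. A value under background was raised to its threshold, which gives a bound. limma 3.58.1 (R 4.3.3) was fitted to probes above background on at least 4 arrays, with condition as block and genotype in saline and in challenged pairs, at a Benjamini-Hochberg adjusted p of 0.05.

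Probes were named through platform annotation (4633 with 1 gene, 5 with several, 392 with none), updated by Entrez ID where RefSeq (GRCm38.p6) holds it (4624). Coordinates of that assembly served only to find the genes within 10 Mb of F2r. Members, gene lists and tests were chosen with earlier results of these data known. Named genes are the PAR genes, the 12 highest and 12 lowest ratios, the 12 outermost bounds on each side, up to 4 outermost and, in lists of cell types, 4 brightest members of each list, and up to 4 neighbours of F2r. Outside this rule, Snap91, Actb, and further markers under background (Myh11, Actg2, Upk2, Col1a2, Dcn, Lum, Pecam1, Kdr, Cma1, Tpsb2) were named after their values were seen, as were brightest members of other lists. Alternatives changed normalization, threshold, bounds, background subtraction, unit (genes) and, for limma, filter, prior and pairs. Arrays have no counting depth, and with 1 array per group their number limits the precision.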

Additional observations from a re-analysis of the deposited data

How the results depend on the processing

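The number of probes higher beyond 3-fold in PAR1-/- saline bladders, 16, was 84 with the background mode subtracted, 9 with equal medians, 9 without normalization, 10 with pairwise regression, 8 with quantile normalization, 6 over probes above background on both arrays and 9 without probes at an array minimum. The number lower, 7, became 45 with the background subtracted, 4 with quantile normalization, 0 over probes above background on both arrays (the 7 are all bounds) and 4 without probes at a minimum. Beyond 2-fold, the 50 higher became 240 with the background subtracted, 23 with equal medians, 21 without normalization, 29 over probes above background on both arrays, 24 with quantile normalization and 33 with a threshold of mode plus 5 SD. The 29 lower became 134 with the background subtracted, 17 with equal medians, 12 over probes above background on both arrays, 12 with quantile normalization and 45 with mode plus 2 SD. Of 1642 recomputed log2 ratios of 173 named probes, none of those beyond 2-fold changed sign, and 100 moved by more than the SD of all log2 ratios, 73 of them on subtracting the background. The median log2 ratio of all probes with a value was 0.107, and -0.052 without normalization. List medians kept within that SD, except mast cells, 0.33 over 3 probes and -0.14 over 5 with pairwise regression. In limma, the 0 calls became 20 (saline), 262 (challenged) and 21 (difference) with no filter on dim probes. The challenged pairs gave 84 without normalization and 55 with a trend in the prior. Leaving out each challenged pair in turn gave 0 calls for all 3 contrasts. The limma fit compared genotypes within condition, and the labels give no replicate numbers to pair. With no filter, the limma fit also held probes raised to their thresholds on most arrays, whose spread was largely not measured. Causes of these changes were not tested.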
